A study of Mus musculus with 9 samples.

Results

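Potassium channel genes were taken as every gene whose symbol is Kcn, lower-case letters and a closing number, with a mean raw count of at least 10 over the 9 mice. Of 27179 genes in the table, 92 carried such a symbol and 79 reached that mean. All 79 also passed the filter on low counts and were tested. They comprised 36 voltage-gated, 13 inward-rectifier, 11 tandem-pore and 8 calcium-activated pore genes and 11 genes for accessory subunits. The members nearest the minimum were Kcnk5 and Kcnq1, with mean raw counts of 15.4 and 17.6, and the gene nearest below it was Kcne2 with 9.22. The other 12 genes below the minimum had means from 1.11 to 5.89 and are not described further.

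Potassium channels let potassium leave the cell and so set the resting potential, end each action potential and limit how fast a neuron can fire. Voltage-gated pores (Kcna to Kcnd, Kcnf to Kcnh, Kcnq, Kcns and Kcnv) open on depolarization, inward rectifiers (Kcnj) carry current near rest, and tandem-pore channels (Kcnk) supply the background leak. Calcium-activated pores and their sodium-activated relatives (Kcnma, Kcnn, Kcnt and Kcnu) couple firing to ion entry, and accessory subunits (Kcnab, Kcne, Kcnip and Kcnmb) alter how the pores open. In the hypothalamic paraventricular nucleus (PVN), a centre for energy balance and autonomic output, A-type and calcium-activated currents are known to shape the firing of neurosecretory and preautonomic neurons, and ATP-sensitive and G protein-gated channels link neurons to nutrients and transmitters.

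Gene expression was measured by bulk RNA sequencing of PVN tissue punches from wild type male C57BL/6 mice (C57BL/6J in the methods), with 3 separate mice in each group and 1 library per mouse. Control mice ate chow with 16% of calories from fat, HFD mice ate a diet with 60% of calories from fat for 12 weeks, and HFD+Mino mice ate the same high fat diet and drank minocycline, a tetracycline antibiotic, at 40 mg/kg/day over the last 6 weeks. The mice were 5 weeks old at the start of the diet, while the labels give postnatal day 35 for all of them, and no chow-fed mice given minocycline were included. Levels are given as CPM, the reads of a gene scaled to a common library size after TMM, a method that evens out library composition, and a punch mixes neurons, glia and vessels, so fewer cells of a type and less RNA per cell cannot be told apart.

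Total counts ran from 17728590 to 42326213 per library, and the 79 genes took from 0.138% to 0.241% of them. The ribosomal RNA gene Rn45s took 0.350% to 0.430% of counts in HFD, against 0.027% to 0.044% in Control and 0.045% to 0.113% in HFD+Mino, so HFD stood apart in it. With Rn45s and the mitochondrial genes left out, the counts of members at an FDR under 0.05 given below were the same. Some libraries stood apart in the markers of the dissected region. Control 1 held almost none of the PVN neuron markers, with a summed level of 30.3 CPM over 7 genes (Sim1, Otp, Avp, Oxt, Crh, Trh and Nos1) against 934 to 3753 CPM in Control 2, Control 3, the HFD mice and HFD+Mino 3, and its Otp count was 0. HFD+Mino 1 and HFD+Mino 2 were far higher in the same list, at 37729 and 31920 CPM, mostly from the peptide hormone genes Avp and Oxt. Control 1 also had 29217 CPM of 6 oligodendrocyte markers against at most 6886 CPM in any other library. Control 2 had 2560 CPM of Pmch and 813 CPM of Hcrt, peptide genes of the lateral hypothalamus, against at most 391 and 73.4 CPM elsewhere. Pmch and Hcrt were chosen after their values were seen. Summed levels of 8 general neuron markers overlapped between the groups, from 6367 to 8867 CPM in Control, 4872 to 7230 CPM in HFD and 6215 to 7922 CPM in HFD+Mino. Summed levels of 4 oligodendrocyte precursor markers did not overlap between HFD, at 124 to 133 CPM, and the other mice, at 43.3 to 78.8 CPM in Control and 39.3 to 48.1 CPM in HFD+Mino, and their part in any result on HFD below was not tested. Counts of members past an FDR are also given below with single libraries left out. Most values of single genes and the class medians are given with all libraries only.

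**Figure D1:**
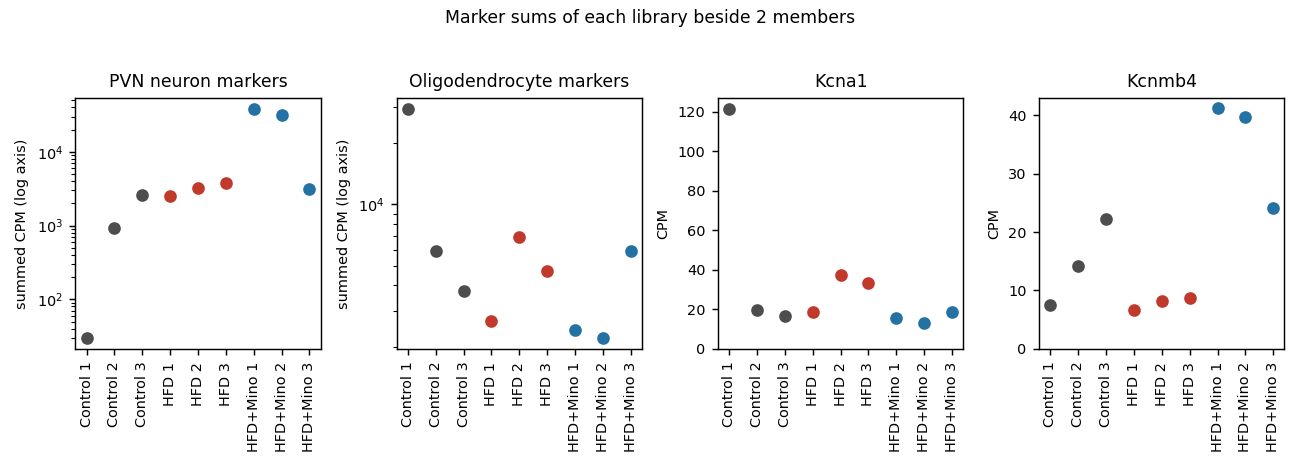
Summed CPM of 7 PVN neuron markers and 6 oligodendrocyte markers (log axes) and CPM of Kcna1 and Kcnmb4 (linear axes from 0) for each of the 9 mice, coloured by group (Control grey, HFD red, HFD+Mino blue). Control 1 is lowest in PVN markers at 30.3 CPM and highest in oligodendrocyte markers and Kcna1, and HFD+Mino 1 and 2 are highest in PVN markers and in Kcnmb4.

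Promoter sequence is shown for 3 genes with HFD mice beyond the other 6, an FDR under 0.05 in the 3-way test, and an entry wholly upstream of the annotated gene. Kcnh5 and Kcnj2 were highest in HFD and Kcnk12 was lowest. The sequences are the 250 bases before the start site from RefSeq on GRCm38.p6, 5′ to 3′ on the strand of the gene, with capitals marking the GC box GGGCGG on either strand.
Kcnh5: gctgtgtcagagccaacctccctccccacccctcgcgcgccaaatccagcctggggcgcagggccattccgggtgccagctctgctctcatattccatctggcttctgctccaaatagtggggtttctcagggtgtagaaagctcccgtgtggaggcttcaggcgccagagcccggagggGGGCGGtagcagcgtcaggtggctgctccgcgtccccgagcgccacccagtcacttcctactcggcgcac
Kcnj2: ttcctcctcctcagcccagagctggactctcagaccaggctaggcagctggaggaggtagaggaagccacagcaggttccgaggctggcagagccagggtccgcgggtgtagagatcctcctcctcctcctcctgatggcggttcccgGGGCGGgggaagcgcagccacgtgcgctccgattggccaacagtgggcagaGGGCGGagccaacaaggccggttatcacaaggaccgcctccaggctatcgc
Kcnk12: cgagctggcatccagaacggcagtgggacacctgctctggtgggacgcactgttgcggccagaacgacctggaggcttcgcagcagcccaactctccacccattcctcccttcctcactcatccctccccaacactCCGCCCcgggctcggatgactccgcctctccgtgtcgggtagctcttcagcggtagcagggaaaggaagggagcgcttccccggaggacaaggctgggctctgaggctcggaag

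The Kcnh5 stretch is chr12:75177333-75177582 on the minus strand, the Kcnj2 stretch chr11:111065914-111066163 on the plus strand, and the Kcnk12 stretch chr17:87797995-87798244 on the minus strand. All 3 hold the GC box, with 2 matches before Kcnj2 and 1 before each of the others, and their GC content was 65.6%, 65.6% and 64.8%. Promoter entries were found for 56 of the 79 genes, 79 entries in all, and their median GC content was 59.2% against 52.4% over all 32851 entries. Read on both strands over the same 250 bases, GGGCGG was in 37 of the 79 entries (46.8%) and in 32.7% of all entries. CCAAT was in 30.4% of the members' entries and 33.8% of all, and among the 3 shown in Kcnj2 alone. TATAAA was in 3.80% and 12.4%, and the cyclic AMP response element TGACGTCA in 0 of 79 entries and 1.55% of all. The GC box letters were thus present before genes with HFD highest and with HFD lowest, and a match is a description of these bases, not a site.

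Levels between genes were compared per kb of exon. Kcnk1, a weak tandem-pore leak channel, and Kcnip4, a calcium-binding partner of A-type pores, were the most abundant at 46.5 and 43.0 CPM per kb of exon (mean of 9 mice). The related Kcnip1 and Kcnip3 followed at 23.1 and 21.8 CPM per kb. Next came the glial inward rectifier Kcnj16 at 16.2 CPM per kb, the G protein-gated Kcnj9 at 14.1, the fast voltage-gated Kcnc4 at 13.8 and the astrocyte channel Kcnj10 at 13.7. The mouse-by-mouse ranges of Kcnj9, Kcnc4 and Kcnj10 overlapped each other and those of Kcnj16, Kcnip1 and Kcnip3. No test compared the levels of different genes within the same mice. The order was not the same in each group, and Kcnj9 was at 24.7 CPM per kb in HFD, above Kcnip1 and Kcnj16, and at 10.05 in Control and 7.65 in HFD+Mino. At the other end stood Kcnh3 at 0.098, the M-current gene Kcnq3 at 0.115 and the acid-sensitive Kcnk9 at 0.134 CPM per kb. Kcnq5, a partner of Kcnq3 in the M-current, stood at 1.11 CPM per kb. Among calcium-activated genes the sodium-activated Kcnt1 led at 4.63, followed by the SK channel Kcnn2 at 2.38, and the BK pore Kcnma1 had 1.83 CPM per kb.

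**Figure D2:**
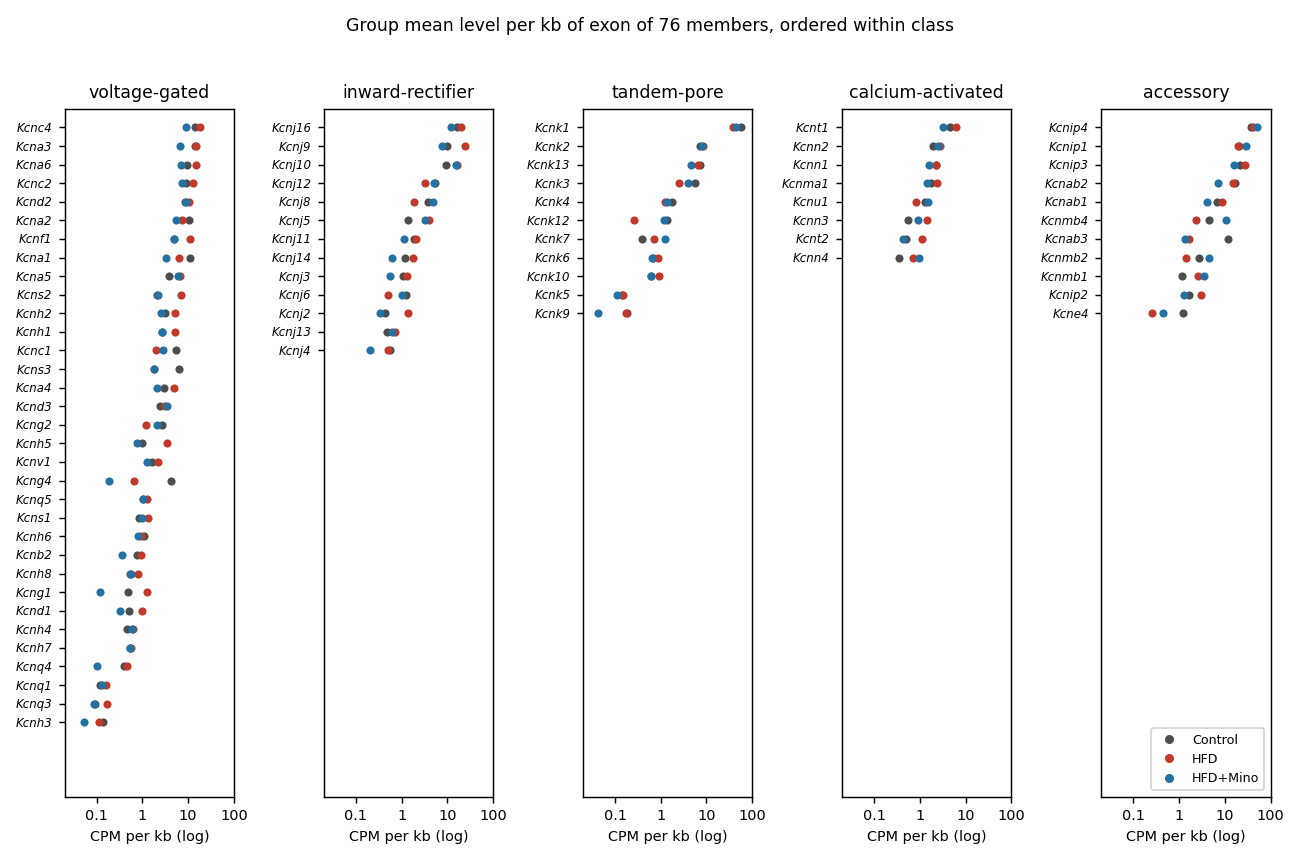
Group mean CPM per kb of exon (log axis) for 76 of the 79 genes in 5 classes, ordered from the highest to the lowest mean of the 9 mice, with Control grey, HFD red and HFD+Mino blue. Kcnk12, Kcnh5, Kcng1 and Kcnmb4 are among those with a group set apart.

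HFD against Control asked which channel genes differed with the diet alone. The FDR is the Benjamini-Hochberg adjusted p of edgeR's quasi-likelihood test over all tested genes, and a gene was called at an FDR under 0.01 with a change of at least 1.5-fold. No member was called, where 0.317% of all 17344 tested genes were called higher and 1.42% lower. At an unadjusted p under 0.05 there were 22 members (27.8%, against 20.5% of all genes). At an FDR of 0.01 DESeq2 called 6 members and 1143 genes in all, 4.57% of the 25025 genes with any count. That base includes genes of low count that the filter for edgeR removed and genes that DESeq2's own filter left uncalled. Its shares here and below are therefore not on genes like the members. With the looser FDR of 0.05, 4 members passed. Kcnh5 was higher, where 2.57% of all genes were higher, and 3 were lower, Kcnc1 and Kcnk12 among them, where 3.21% of all genes were lower. These shares, 1.27% and 3.80%, are near the background. Without Control 1 none of the 4 passed, and Kcnh5, Kcnc1 and Kcnk12 had FDRs from 0.061 to 0.117 with the same directions. Without HFD 1 or HFD 2 the count was also 0, and without HFD 3 or Control 2 it was 1. In these 5 fits at most 0.628% of all genes were higher and 2.23% lower. Without HFD+Mino 2 or HFD+Mino 3 the count was 6, with 3.61% and 4.30% of all genes higher and 3.64% and 3.96% lower. The median log2 fold change of the 79 genes was 0.31 against 0.00 over all tested genes, and 52 of the 79 had a positive value.

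Kcnh5 encodes a slow EAG-family pore. It stood at 3.75, 3.25 and 4.71 CPM in Control, 14.2, 14.2 and 14.1 CPM in HFD and 2.6, 1.11 and 5.41 CPM in HFD+Mino. All 3 HFD mice were more than double every other mouse. The log2 fold change was 1.86 ± 0.47 (SE) in HFD against Control (edgeR FDR = 0.042) and -2.21 ± 0.48 in HFD+Mino against HFD (edgeR FDR = 0.012). Kcnk12, a tandem-pore subunit that forms no current by itself in many systems, had the opposite order, at 3.13, 1.67 and 3.21 CPM in Control, 0.30, 0.49 and 0.75 CPM in HFD, and 2.64, 1.26 and 3.11 CPM in HFD+Mino. The HFD range lay below that of the other 6 mice, on low counts of 6 to 126 reads. Its log2 fold changes were -2.34 ± 0.55 (edgeR FDR = 0.032) and 2.15 ± 0.55 (edgeR FDR = 0.018), and with a trend on exon length removed these FDRs were 0.057 and 0.071.

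Kcnc1 encodes a Kv3 pore, a type that allows fast spiking. It had 69.5, 38.7 and 48.4 CPM in Control, 12.6, 19.2 and 23.2 CPM in HFD and 28.4, 19.8 and 29.7 CPM in HFD+Mino. Every Control mouse was above every other mouse, and the log2 fold change in HFD against Control was -1.51 ± 0.31 (edgeR FDR = 0.016). Kcnc2 and Kcnc4, of the same family, had log2 fold changes of 0.50 and 0.31 in the same comparison and did not pass.

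**Figure D3:**
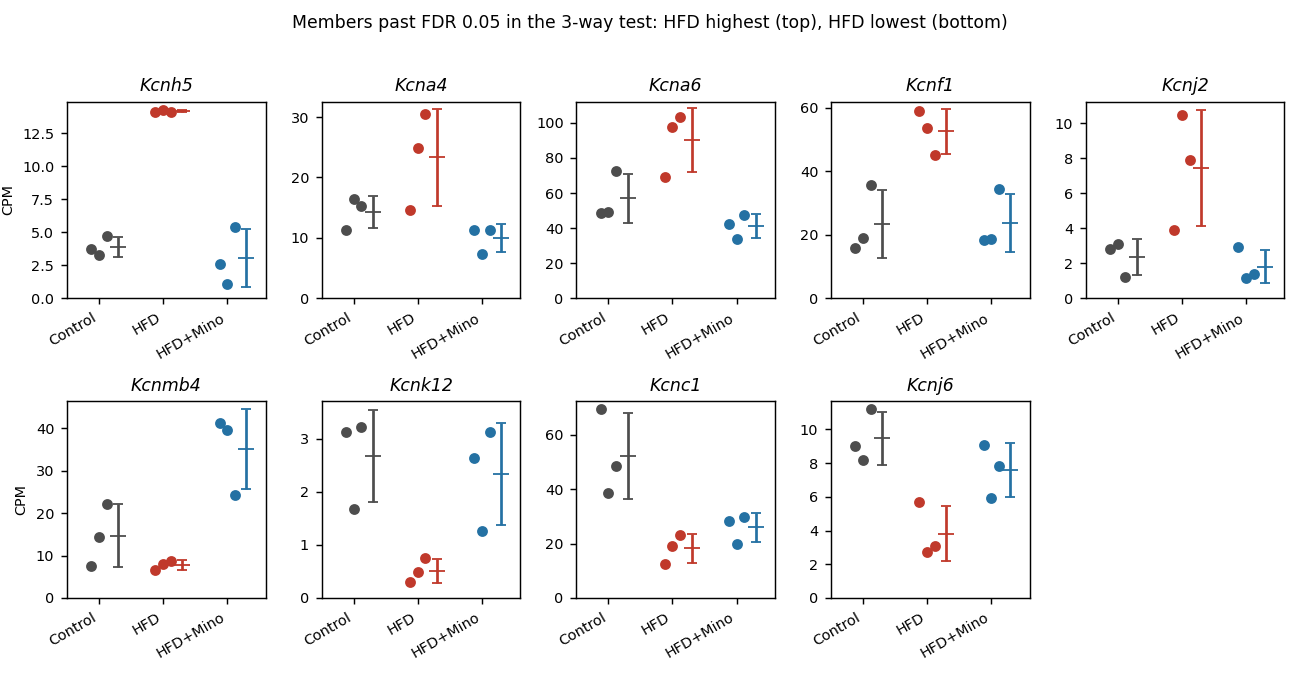
CPM of 9 of the 10 members past an FDR of 0.05 in the 3-way test, 1 point per mouse, with the mean and SD of each group beside the points (n = 3, axes from 0). The top row holds the 5 genes with HFD highest and the bottom row 4 of the 5 with HFD lowest, and the HFD points of Kcnh5, Kcnf1, Kcnj2, Kcnk12 and Kcnj6 do not overlap those of the other groups.

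HFD+Mino against HFD asked what differed when the same diet was combined with minocycline. At an FDR under 0.01 with 1.5-fold, 1 member was called, Kcnmb4, which rose, and 0 were lower, where 1.98% of all genes were higher and 2.16% lower. DESeq2 called 13 members at that FDR and 3796 genes in all, 15.2% of the 25025 genes with any count, low-count genes included. At the FDR of 0.05, 20 members passed, and 18 of them (22.8%) were lower, where 12.9% of all genes were lower. In the other direction 2 members (2.53%) were higher, Kcnmb4 and Kcnk12, where 14.6% of all genes were higher. The lower genes included 9 of 36 voltage-gated genes (Kcna4, Kcna6, Kcnb2, Kcnc4, Kcnd1, Kcnf1, Kcng1, Kcnh2 and Kcnh5), 5 of 13 inward rectifiers (Kcnj2, Kcnj3, Kcnj9, Kcnj11 and Kcnj16), 2 of 8 calcium-activated genes (Kcnma1 and Kcnt1), 2 of 11 accessory genes (Kcnab1 and Kcnip3) and no tandem-pore gene. The median log2 fold change was -0.44 against 0.01 over all genes, and 57 of the 79 had a negative value.

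Of the 8 neuron markers, Syt1 and Rbfox3 were lower in HFD+Mino than in HFD, with log2 fold changes of -1.44 (edgeR FDR = 0.013) and -1.19 (edgeR FDR = 0.028), and Gap43 was higher, with 1.00 (edgeR FDR = 0.020). Their part in the channel values was not tested. The count of lower channel genes changed when exon length was taken into account and when single libraries were left out. With each library's trend on exon length removed, 12 members passed an FDR of 0.05, 7 lower and 5 higher, where 6.27% of all genes were lower and 11.6% higher, and 8 of them were among the 20. The members' median exon length was 4587 bases against 4334 over all genes tested. Leaving out HFD+Mino 3 gave 25 lower and 4 higher members, with 18.8% and 19.2% of all genes in those directions, and the 20 were all among them. Leaving out HFD+Mino 1 left 1 lower (Kcnj2) and 1 higher (Kcnmb4), and leaving out HFD 3 left Kcnmb4 alone. The shares of all genes fell as well, to 3.52% lower and 3.46% higher without HFD+Mino 1 and to 1.65% and 1.46% without HFD 3. The count was 8 without HFD 1 (4.95% of all genes lower and 3.22% higher) and 3 without HFD 2 (4.07% and 3.73%). It was 9 without HFD+Mino 2 (8.99% and 9.49%) and 11 without Control 2 (8.99% and 9.99%). Without Control 1, 22 were lower and 3 higher, where 13.3% and 15.1% of all genes were. At an FDR under 0.01 the count without HFD+Mino 3 was 16, and 21.4% of all genes were called in that fit.

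Kcnmb4 encodes the beta4 subunit that slows BK channels in neurons and lowers their sensitivity to iberiotoxin. It had 7.48, 14.3 and 22.3 CPM in Control (14.7 ± 7.40, SD, n = 3), 6.58, 8.12 and 8.76 CPM in HFD (7.82 ± 1.12) and 41.2, 39.7 and 24.2 CPM in HFD+Mino (35.0 ± 9.42). Every HFD+Mino mouse was above every HFD mouse and above every Control mouse, while Control and HFD overlapped. The log2 fold change in HFD+Mino against HFD was 2.16 ± 0.38 (edgeR FDR = 0.0071), and in HFD against Control it was -0.90 ± 0.37 (edgeR FDR = 0.201). The log2 value stayed between 2.03 and 2.37 over 20 alternatives, with FDRs up to 0.040, and the call at 0.01 was lost without Control 2, without any HFD mouse, or without HFD+Mino 1 or 2. Within each group the order of the mice in Kcnmb4 was also their order in summed PVN markers. The sums were 30.3, 934 and 2572 CPM in Control, 2512, 3240 and 3753 CPM in HFD and 37729, 31920 and 3110 CPM in HFD+Mino. The part of those markers in the result was not tested. Of its 3324 exon bases, 355 are shared with the antisense gene Kcnmb4os1 and 693 with the antisense gene Kcnmb4os2, and the strand setting of the counting is not given in the sources used here.

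The beta4 subunit was also set against its pore. Kcnma1, the BK pore, had 30.5, 27.6 and 29.5 CPM in Control, 33.1, 40.7 and 45.1 CPM in HFD and 22.9, 25.1 and 25 CPM in HFD+Mino. Each HFD mouse was above the other 6, and the log2 fold change in HFD+Mino against HFD was -0.71 ± 0.21 (edgeR FDR = 0.029). The ratio of Kcnmb4 to Kcnma1, both per kb of exon, was 1.25, 2.64 and 3.85 in Control, 1.02, 1.02 and 0.99 in HFD, and 9.21, 8.08 and 4.95 in HFD+Mino. The 3 HFD ratios were nearly equal and lowest, and the 3 HFD+Mino ratios were highest. The smooth muscle subunit Kcnmb1 had log2 fold changes of 1.19 and 0.46 in the 2 comparisons, and Kcnmb2, whose subunit inactivates BK channels, had -0.88 and 1.66. Neither passed an FDR of 0.05.

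**Figure D4:**
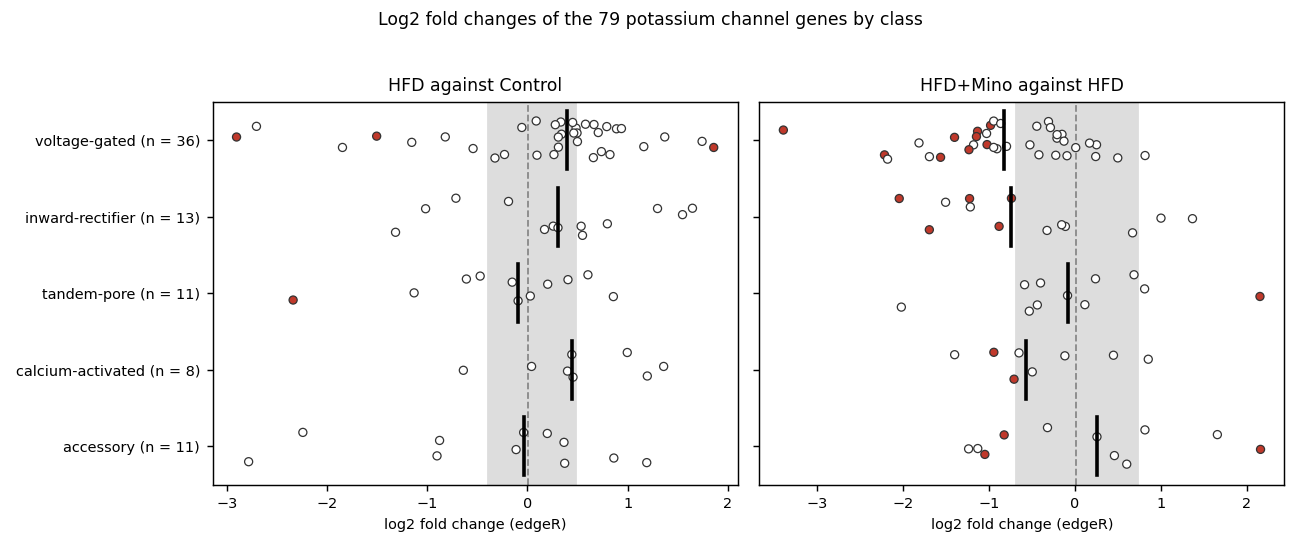
Log2 fold changes of the 79 genes by class, 1 point per gene, with filled points past an FDR of 0.05 and 1.5-fold, black bars for class medians, and a grey band and dashed line for the middle 50% and median of all 17344 tested genes. Voltage-gated and inward-rectifier medians lie at 0.40 and 0.30 on the left and at -0.83 and -0.74 on the right, and tandem-pore medians lie near 0 on both sides.

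The study's 3-way question was which genes set HFD apart from both other groups. A gene was called when its 3-way FDR passed, HFD was the highest or lowest group, and its log2 level lay at least 1.5-fold away from the average of all groups. No member was called at an FDR under 0.01 by edgeR's quasi-likelihood test, where 0.917% of all genes were called with HFD highest and 1.21% with HFD lowest. DESeq2 called 13, and 2381 genes in all, 9.51% of the 25025 genes with any count, low-count genes included. At an FDR under 0.05, Kcna4, Kcna6, Kcnf1, Kcnh5 and Kcnj2 passed with HFD highest (6.33% of members, 6.37% of all genes) and 5 members, Kcnc1, Kcnj6, Kcnk12 and Kcnmb4 among them, with HFD lowest (6.33%, against 6.65% of all genes). These shares are near the background. Without Control 1 the count was 7, and Kcna6, Kcnc1 and Kcnj6 were among the 4 lost. Without any 1 of the HFD mice it was 0, where at most 0.920% of all genes passed with HFD highest and 1.09% with HFD lowest. It was 1 without HFD+Mino 1 (2.17% and 2.26% of all genes), and 5 without HFD+Mino 2 (4.83% and 3.89%) or Control 2 (3.29% and 3.24%). It was 22 without HFD+Mino 3, where 10.5% and 10.1% of all genes passed. At an FDR under 0.01 it was 11 without HFD+Mino 3, and 13.4% of all genes were called in that fit. By values alone, all 3 HFD mice were above the other 6 for 14 members (17.7%, against 13.4% of all genes) and below them for 3, Kcnj6, Kcnj8 and Kcnk12 (3.80%, against 9.62%). The group mean was highest in HFD for 47 members (59.5%, against 38.3% of all genes) and lowest for 17 (21.5%, against 38.4%). Both pairs share the HFD mice, so these counts describe the place of 1 group.

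**Figure D5:**
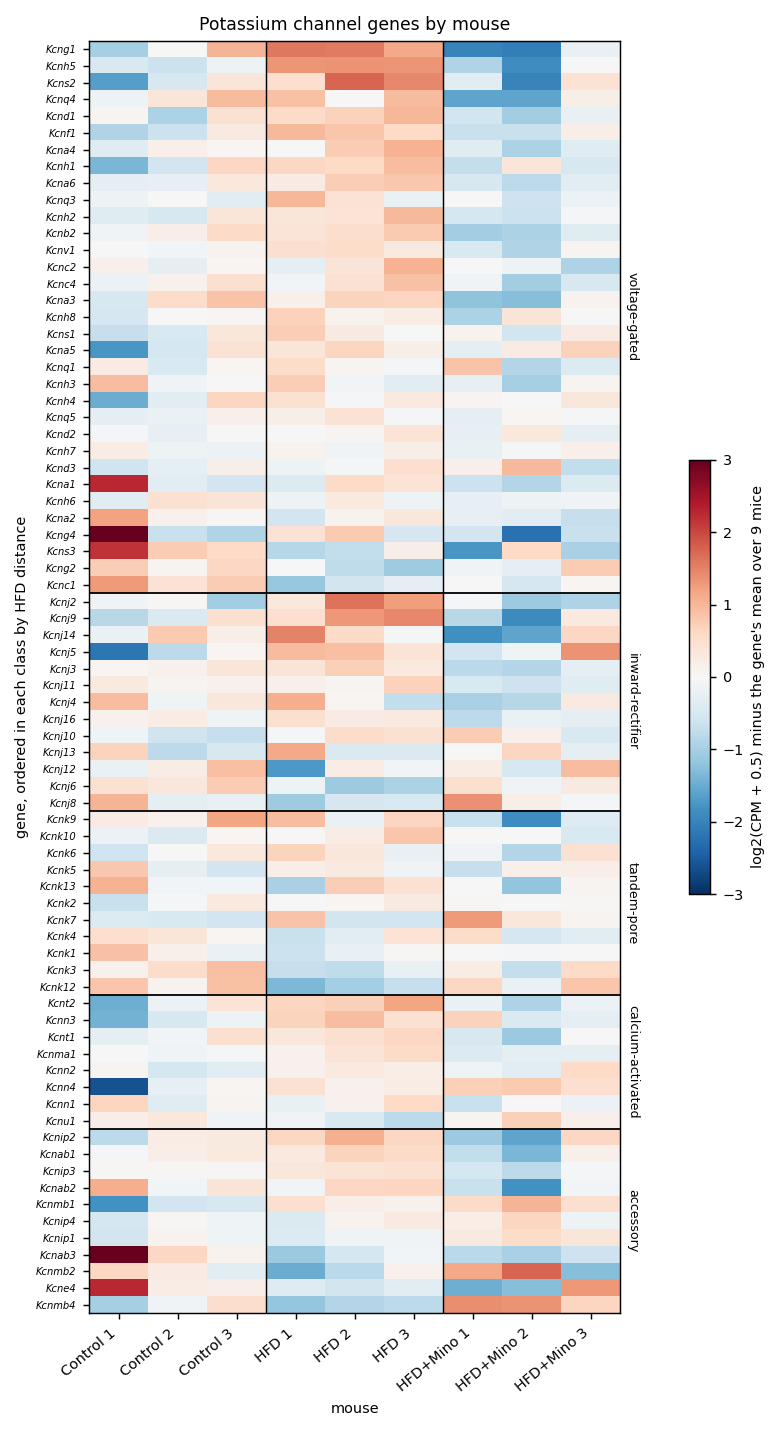
Log2(CPM + 0.5) of 76 members, each minus its mean over the 9 mice, with 1 column per mouse, classes separated by lines, genes ordered by how far HFD lay from the average of all groups, and colours limited at 3 on either side. The ordering itself places genes with higher HFD levels at the top of each block, and Control 1 stands out in Kcna1, Kcng4, Kcnab3 and Kcne4.

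Voltage-gated genes had class medians of 0.40 in HFD against Control and -0.83 in HFD+Mino against HFD (log2), and 30 of the 36 were lower in HFD+Mino than in HFD. Kcna4 and Kcna6 are Shaker-family genes. Kcna6 had 48.8, 49.1 and 72.8 CPM in Control, 69.3, 97.8 and 103 CPM in HFD, and 42.3, 33.9 and 47.3 CPM in HFD+Mino. HFD and HFD+Mino did not overlap, and the log2 fold change between them was -1.13 ± 0.25 (edgeR FDR = 0.013). Of its 5945 exon bases, 2355 are shared with Gm26673 on the opposite strand. Kcna4, an A-type pore, had 14.6 to 30.5 CPM in HFD and 7.28 to 11.3 CPM in HFD+Mino, with a log2 fold change of -1.23 ± 0.32 (edgeR FDR = 0.020). Kcnb2, a delayed rectifier, had 8.69, 11 and 14.2 CPM in Control, 12.5, 13.7 and 16.6 CPM in HFD and 4.31, 4.64 and 7.29 CPM in HFD+Mino. Control and HFD overlapped, and every HFD+Mino mouse was below both (log2 fold change against HFD -1.40 ± 0.31, edgeR FDR = 0.013).

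Silent subunits, which form no channel alone and modify Kv2 pores, included Kcng1, Kcnf1, Kcns2 and Kcng4. Kcng1 had 6.27, 6.15 and 4.51 CPM in HFD, against 0.068, 0.037 and 1.45 CPM in HFD+Mino and 0.65, 1.78 and 4.12 CPM in Control. HFD did not overlap the other groups, and the log2 fold change in HFD+Mino against HFD was -3.39 ± 1.05 (edgeR FDR = 0.035), on counts as low as 1 read. Without HFD+Mino 3 the value was -6.63 (edgeR FDR = 0.0011), and without Control 2, HFD+Mino 1, HFD+Mino 2 or any HFD mouse the FDR was from 0.055 to 0.113. Kcnf1 had 59.1, 53.7 and 45.1 CPM in HFD against 15.8 to 35.7 CPM in Control and 18.4 to 34.4 CPM in HFD+Mino, with log2 fold changes of 1.16 (edgeR FDR = 0.082) and -1.14 (edgeR FDR = 0.034). Kcns2 followed the same order, with 22.1 to 53.4 CPM in HFD against 4.60 to 19.9 and 3.45 to 21 CPM, and was not past an FDR of 0.05 in the quasi-likelihood test of all 9 libraries, although it passed under some of the alternatives, DESeq2 and the likelihood ratio test among them. Kcng4 was instead a gene of 1 library, at 46.7 CPM in Control 1 and at most 3.57 CPM in the other 8.

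Of the Kcnd (A-type) and Kcnq (M-current) genes, Kcnd1 alone passed an FDR of 0.05, in HFD+Mino against HFD. Kcnd2 and Kcnd3, the main somatodendritic A-type pores, had log2 fold changes of 0.26 ± 0.23 and 0.33 ± 0.40 in HFD against Control and -0.21 ± 0.23 and 0.17 ± 0.40 in HFD+Mino against HFD. Kcnd1 had 4.37, 4.76 and 6.00 CPM in HFD and 1.71, 1.08 and 2.32 CPM in HFD+Mino (log2 fold change -1.56 ± 0.49, edgeR FDR = 0.037). Among M-current genes, Kcnq3 had 0.82 ± 0.50 and -0.94 ± 0.50, and Kcnq5 had 0.31 ± 0.27 and -0.28 ± 0.27 in the 2 comparisons. The ERG gene Kcnh2 had 20.9 to 32.3 CPM in HFD and 10.1 to 15.6 CPM in HFD+Mino, with no overlap (log2 fold change -1.02 ± 0.32, edgeR FDR = 0.035). Kcna1 and Kcna2, juxtaparanodal pores of myelinated axons, had 122 and 196 CPM in Control 1 against at most 37.2 and 109 CPM elsewhere, in the library with the highest oligodendrocyte markers. The part of those markers in the values was not tested.

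Inward rectifiers are given by role, and no test compared the roles. G protein-gated genes encode GIRK channels, which mute neurons on transmitter signals. Kcnj9 had 26.6, 35.1 and 67.5 CPM in Control, 67.8, 119 and 131 CPM in HFD and 26.7, 12.3 and 59.3 CPM in HFD+Mino. HFD lay above the other groups, although Control 3 came within 1 CPM of HFD 1, and the log2 fold changes were 1.30 ± 0.52 (edgeR FDR = 0.187) and -1.69 ± 0.53 (edgeR FDR = 0.036). Kcnj6 was lowest in HFD, with 5.67, 2.73 and 3.06 CPM against 8.19 to 11.2 CPM in Control and 5.91 to 9.11 CPM in HFD+Mino, and had log2 fold changes of -1.32 ± 0.35 and 1.00 ± 0.35 (edgeR FDR of 0.054 in both). Kcnj3, the shared partner subunit, had 6.37, 8.03 and 5.85 CPM in HFD and 2.46, 2.34 and 3.85 CPM in HFD+Mino (-1.22 ± 0.33, edgeR FDR = 0.022), and 1621 of its 5215 exon bases are shared with an opposite-strand gene.

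The classical inward rectifier Kcnj2 had 2.81, 3.11 and 1.21 CPM in Control, 3.92, 10.5 and 7.89 CPM in HFD and 2.91, 1.15 and 1.37 CPM in HFD+Mino. HFD was above all other mice, and the log2 fold changes were 1.65 ± 0.52 (edgeR FDR = 0.099) and -2.04 ± 0.53 (edgeR FDR = 0.020). Kcnj11 and Kcnj8 encode ATP-sensitive pores. Kcnj11, the neuronal pore, had 6.83, 6.44 and 10.0 CPM in HFD and 4.28, 3.75 and 4.62 CPM in HFD+Mino, without overlap (-0.88 ± 0.29, edgeR FDR = 0.046). Kcnj8, the vascular pore, had 3.46, 5.31 and 5.55 CPM in HFD, below the other 6 mice at 6.32 to 20.8 CPM. Its log2 fold changes were -1.02 ± 0.48 in HFD against Control (edgeR FDR = 0.262) and 1.37 ± 0.48 in HFD+Mino against HFD (edgeR FDR = 0.056). Summed vascular markers were 76.7 to 101 CPM in HFD, 103 to 183 CPM in Control and 64.5 to 143 CPM in HFD+Mino. Single markers in the sum differed in direction. The HFD mice lay below all other mice in Rgs5, at 1.56 to 2.73 CPM, and in Acta2. Rgs5 had a log2 fold change of 1.56 in HFD+Mino against HFD (edgeR FDR = 0.023). In Flt1 the HFD mice lay above all other mice, and HFD+Mino was lower than HFD (edgeR FDR = 0.015). The part of the vascular markers in the Kcnj8 values was not tested.

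The glial inward rectifiers were Kcnj10 and Kcnj16. Kcnj10, which clears potassium into astrocytes, had 63.8, 46.0 and 43.4 CPM in Control, 67.4, 103 and 96.1 CPM in HFD and 119, 77.5 and 50.8 CPM in HFD+Mino. HFD was above Control without overlap, but the log2 fold change of 0.80 ± 0.31 did not pass (edgeR FDR = 0.178), and HFD+Mino spanned both. Its heteromeric partner Kcnj16 had 86.5, 73.0 and 75.7 CPM in HFD against 56.5 to 72.8 CPM in Control and 35.9 to 53.7 CPM in HFD+Mino (log2 fold change against HFD -0.74 ± 0.22, edgeR FDR = 0.032). Summed levels of 7 astrocyte markers overlapped between the groups, from 4162 to 6393, 4349 to 5020 and 4014 to 4844 CPM in Control, HFD and HFD+Mino. Aldoc was the largest part of that sum in every library. The astrocyte markers Aqp4 and Aldh1l1 were lower in HFD+Mino than in HFD without overlap, with Aqp4 at 53.4 to 83.1 against 150 to 168 CPM (edgeR FDR = 0.012) and Aldh1l1 at 26.7 to 59.0 against 78.1 to 92.5 CPM (edgeR FDR = 0.017). S100b went the other way, with every HFD+Mino mouse above every HFD mouse (log2 fold change 1.15, edgeR FDR = 0.063). Of the remaining astrocyte markers, Gjb6 and Aldoc had positive log2 fold changes and Gfap and Slc1a3 negative ones. The part of the astrocyte markers in the Kcnj16 values was not tested.

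Tandem-pore genes had class medians of -0.09 and -0.08 (log2), and Kcnk12 was the only one past an FDR of 0.05. The TASK genes Kcnk3 and Kcnk9, acid-sensitive leak channels, had log2 fold changes of -1.13 ± 0.36 and -0.09 ± 0.86 in HFD against Control and 0.69 ± 0.36 and -2.02 ± 0.92 in HFD+Mino against HFD. Kcnk3 had 8.78, 8.44 and 12.5 CPM in HFD, below all Control mice at 15.9 to 27.8 CPM (edgeR FDR = 0.098). Kcnk9 was read at 0 in HFD+Mino 2. The mechanosensitive Kcnk2 ranged from 23.6 to 46.8 CPM over the 9 mice, and the microglial Kcnk13 ranged from 7.17 CPM in HFD+Mino 2 to 35.4 CPM in Control 1. Kcnk1 had 185 CPM in Control 1 and from 63.5 to 112 CPM in the other 8 mice.

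Calcium-activated genes had a class median of 0.45 in HFD against Control, and 5 of the 8 had all 3 HFD mice above all Control mice, as had 19.7% of all tested genes. The SK gene Kcnn3, which sets afterhyperpolarization and firing pattern, had 3.06, 6.30 and 7.98 CPM in Control, 14.4, 17.5 and 12.5 CPM in HFD and 14.6, 6.46 and 7.29 CPM in HFD+Mino, with a log2 fold change of 1.36 ± 0.41 that did not pass (edgeR FDR = 0.085). Kcnn2 had 0.46 ± 0.29 and -0.12 ± 0.29 in the 2 comparisons. The sodium-activated genes Kcnt1 and Kcnt2 were lower in all HFD+Mino mice than in all HFD mice. Kcnt1 had 52.1, 57.6 and 63.9 CPM in HFD and 29.6, 18.8 and 42.0 CPM in HFD+Mino (-0.94 ± 0.31, edgeR FDR = 0.042), and Kcnt2 had 6.58, 6.87 and 9.71 CPM in HFD and 3.46, 1.86 and 3.47 CPM in HFD+Mino (-1.40 ± 0.51, edgeR FDR = 0.064).

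Beside the BK subunits, the accessory genes held partners of A-type pores (Kcnip) and of Shaker-family pores (Kcnab). Kcnip1 had 105, 129 and 129 CPM in HFD and 169, 203 and 180 CPM in HFD+Mino, without overlap, with a log2 fold change of 0.60 ± 0.22 (edgeR FDR = 0.063). Kcnip4 had 0.26 ± 0.27, and Kcnip3, a calcium sensor that also acts in the nucleus, had 94.5, 99.6 and 103 CPM in HFD against 51.8, 43.1 and 73.1 CPM in HFD+Mino (-0.82 ± 0.22, edgeR FDR = 0.022). The Control values of Kcnip3 were 76.6, 77.1 and 76.9 CPM. Of the beta subunits of Shaker-family pores, Kcnab1 had 63.1, 81.4 and 76.1 CPM in HFD and 30.5, 19.5 and 56.8 CPM in HFD+Mino (-1.05 ± 0.33, edgeR FDR = 0.039), and Kcnab2 had -1.13 ± 0.43 (edgeR FDR = 0.071). Kcnab3 and Kcne4 were high in Control 1, at 81.0 and 7.08 CPM against at most 11.2 and 3.36 CPM in the other 8 libraries.

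HFD+Mino against Control differed in both diet and drug. No member was called at an FDR under 0.01 or 0.05, and 0% of all tested genes were called at either threshold by edgeR's quasi-likelihood test. At an unadjusted p under 0.05 there were 18 members (22.8%, against 21.3% of all genes). With an FDR under 0.01 DESeq2 called 3 members, Kcnab3 and Kcnmb1 among them. It called 286 genes in all, 1.14% of the 25025 genes with any count, low-count genes included. Leaving out HFD+Mino 3 gave 4 members at an FDR under 0.01, where 6.28% of all genes were called, and 17 at 0.05, with 10.9% of all genes higher and 9.85% lower at 0.05. The median log2 fold change was -0.34 against -0.02 over all genes, and HFD+Mino lay above Control without overlap for 5 members (6.33%, against 8.93% of all genes), Kcnmb4 among them, and below it for 14 (17.7%, against 10.1%), Kcnc1 among them.

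Genes that work with potassium channels but carry other symbols were read from a list of 27, of which 26 were tested (auxiliary and anchoring proteins, Hcn pacemaker channels, the sodium-potassium pump and cation-chloride cotransporters). With an FDR under 0.05, 2 were higher and 1 lower in HFD against Control, and 1 was higher and 7 lower in HFD+Mino against HFD. Over all genes the shares were 2.57% and 3.21% in the first comparison and 14.6% and 12.9% in the second. Their median log2 fold changes were 0.27 and -0.81. Adam22, the Lgi1 receptor near Kv1 channels, had 73.5, 87.3 and 121 CPM in Control, 304, 320 and 320 CPM in HFD and 79, 94.8 and 72.6 CPM in HFD+Mino. All 3 HFD mice were far above the other 6, and Adam22 was called at an FDR under 0.01 in both comparisons. Slc12a5, the neuronal chloride extruder, had 341, 429 and 480 CPM in HFD against 131 to 225 CPM in Control and 120 to 138 CPM in HFD+Mino. Hcn2 had 74.2, 34.2 and 41.0 CPM in Control, 1.05, 2.09 and 2.29 CPM in HFD and 6.98, 2.34 and 26.1 CPM in HFD+Mino, with a log2 fold change of -4.76 in HFD against Control (edgeR FDR = 0.0057). Voltage-gated sodium channel genes (13 tested) had medians of 0.65 and -0.88, and voltage-gated calcium channel genes (25 tested) had 0.39 and -0.23. The medians for potassium channel genes were 0.31 and -0.44, and no list was tested against another. Median exon lengths were 7966 bases for sodium channel, 8963 for calcium channel and 7768.5 for partner genes. They were 4587 bases for potassium channel genes and 4334 over all genes tested. With the length trend removed the potassium channel medians were 0.18 and -0.28, and those of the other lists were not recomputed.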

How the data were processed

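PVN punches of 9 mice were sequenced with SMARTer v4 and Nextera XT libraries. Per the labels and the study's methods, the authors aligned reads to mm10 with HISAT2 and deposited the featureCounts count of each gene, unnormalized. Counting by strand is not given in the sources used here. Reads carry no molecular identifiers. Errors are taken from the spread between mice, which are the replicates.

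Here edgeR 4.0.16 (R 4.3.3) was used with filterByExpr, TMM and 1 quasi-likelihood model of all 9 libraries, with Benjamini-Hochberg adjustment over 17344 genes. Calls needed an FDR under 0.01 and 1.5-fold, and an FDR under 0.05 is given beside it. Alternatives were DESeq2 1.42.0, a likelihood ratio test, other scaling and filters, exon length and GC trends removed, a replicate block, models of 6 samples and each library left out. Code was tested on simulated counts. Gene positions and promoters came from RefSeq (GRCm38.p6) and exon lengths from GENCODE M21, found for all 79 members.

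Members and lists were chosen with earlier results of these data known. Genes were named if called, if in each class they were the 2 farthest from the group mean in HFD or the 2 most abundant per kb, by fixed role, or if nearest the count minimum. All other genes named with values (those past an FDR of 0.05, those high in 1 library, and relatives of named genes) were chosen after their values were seen. Same-numbered Control and HFD+Mino libraries deviated together (correlations of deviations from group means 0.135, 0.163 and 0.292, from the counts alone, since no shared litter or batch is named), whereas pairs with HFD gave -0.152 to -0.0062. The paired fit of Control and HFD+Mino called no member at either FDR, and was added after the data were seen. Some genes that the rule names are not reported here and are not drawn by name, but they stay in all counts and medians.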

Additional observations from a re-analysis of the deposited data

How the results depend on the processing

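Counts of called members moved with the test, threshold and libraries, while the members' median log2 fold changes in HFD against Control and HFD+Mino against HFD kept their signs. In the 3-way test 0 members at an FDR under 0.01 became 13 with DESeq2, 8 with edgeR's likelihood ratio test, 4 with no filter on low counts, 1 with a GC trend removed, 10 at an FDR of 0.05, and 0 to 11 with 1 library left out. For HFD against Control, 0 became 6, 5, 3 and 1 under the same first 4 settings, 1 with a length trend removed, 1 in a model of 6 samples, 4 at an FDR of 0.05, and 0 to 1 with 1 library left out. For HFD+Mino against HFD, 1 became 13, 11, 3 and 3 under those 4 settings, 5 with a replicate block, 20 at an FDR of 0.05, and 0 to 16 with 1 library left out (16 without HFD+Mino 3). For HFD+Mino against Control, 0 became 3 with DESeq2, 1 with the likelihood ratio test, and 0 to 4 with 1 library left out. The causes were not tested.

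At an FDR under 0.05, recomputed under each alternative after the data were seen, the 3-way 10 became 18 with DESeq2, 19 with the likelihood ratio test, 6 with a length trend removed, and 0 to 22 with 1 library left out. The 4 in HFD against Control became 14, 11, 7 with a GC trend removed, and 0 to 6. The 20 in HFD+Mino against HFD became 30, 27, 12 with a length trend removed, and 1 to 29. The 0 in HFD+Mino against Control became 7, 7, 1 with no filter, and 0 to 17. The replicate block gave 15, 5, 24 and 0 members at this FDR, and 0 at 0.01 in the other 3 comparisons. Median log2 fold changes stayed positive (0.18 to 0.44) and negative (-0.63 to -0.28), nearest 0 with the length trend removed. Medians by class and in HFD+Mino against Control were not recomputed. With 3 mice a group and marker differences among the Control and HFD+Mino punches, group and dissection cannot be told apart.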
